A study of Drosophila melanogaster with 2 samples.

Results

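The chemosensory receptor genes of Drosophila melanogaster were examined for binding of Bgb-eGFP by chromatin immunoprecipitation and sequencing (ChIP-seq). The set holds every protein-coding gene of the Ensembl BDGP6 annotation whose symbol is Or, Gr or Ir followed by digits and a lower-case letter. This gave 179 of 13968 protein-coding genes, namely 59 Or, 60 Gr and 60 Ir genes. A further 6 Ir symbols of the same form (Ir47b, Ir48a, Ir51a, Ir56e, Ir60c and Ir60f) are annotated as pseudogenes and were left out. Membership rests on the symbol and used no measured value.

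The material was whole embryos aged 0 to 24 h, of the fly strain Bgb-GFP, which carries an insertion that tags Bgb (Big brother) with eGFP, a green fluorescent protein. Both samples, biological replicates 1 and 2, belong to this 1 group, so there is no second genotype, stage or treatment. Control libraries were not analysed here. The free text of the labels names an anti-GFP antibody and their antibody entry names Bgb. Whole embryos pool all tissues and stages, so binding in a few sensory neurons cannot be told apart from weak binding in many cells.

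Or genes encode odorant receptors, multi-spanning membrane proteins that form ion channels with the co-receptor Orco in olfactory neurons. Gr genes encode the related gustatory receptors, which detect sugars, bitter compounds and carbon dioxide. Ir genes encode ionotropic receptors, which derive from ionotropic glutamate receptors, work with co-receptors such as Ir8a, Ir25a and Ir76b, and serve smell, taste, temperature and humidity sensing. Most receptor genes are transcribed in small, dedicated sets of sensory neurons, and many lie in tandem arrays. Bgb is a fly CBF-beta protein, which binds DNA through its Runt domain partners.

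Few receptor genes had a peak. A summit is the position the authors give as the top of a peak. The window of a gene ran from 2 kb before its start to its end. The list the authors call conservative, thresholded by the irreproducible discovery rate (IDR, a measure of how well peak ranks recur between replicates), holds 4488 peaks. By this list 10 of 179 receptor genes had a summit in the window (5.59%, exact 95% binomial interval 2.71 to 10). Among all protein-coding genes 37.4% did. Receptor windows were short, with a median of 3690 bp against 4160 bp over all genes, so genes of like length were set beside them. Of 5189 non-receptor genes with windows between the 10th and 90th percentile of the receptor windows, 36.6% had a peak (35.3 to 38). Intervals cover counting error only, and genes of an array share parts of their windows.

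Each of the 3 families lay below that background. Or genes had a peak in 2 of 59 cases (3.39%, 0.413 to 11.7), Gr genes in 2 of 60 (3.33%, 0.406 to 11.5) and Ir genes in 6 of 60 (10%, 3.76 to 20.5). The Or members were Or9a and Or67b, the Gr members Gr59e and Gr97a, and the Ir members Ir31a, Ir47a, Ir60b, Ir60e, Ir76a and Ir76b. The intervals of the families overlap widely, and the difference between Ir and the other two was not tested, since neighbouring members are not independent.

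**Figure D1:**
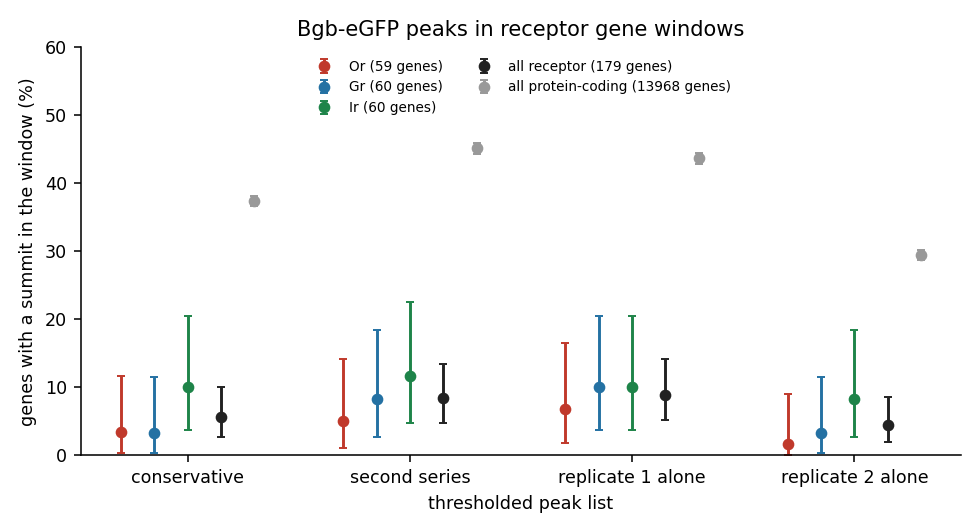
Percent of genes with a summit in the window (y axis) for 4 thresholded peak lists (x axis), by family, for all receptor genes and for all protein-coding genes; bars are exact 95% binomial intervals. In each list the receptor genes lie below all protein-coding genes, from 4.47% against 29.5% in replicate 2 alone to 8.94% against 43.7% in replicate 1 alone.

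These 10 genes held 11 peaks, and most of their summits were nearest to a neighbour's start. By distance to the nearest annotated transcription start site (TSS) of a protein-coding gene, 9 of 11 summits were nearest to a gene that is not a chemosensory receptor (81.8%, 48.2 to 97.7). All 9 lay within 1 kb of that neighbour's TSS and 7 lay within 100 bp. Both Gr59e peaks, which overlap, count among the 9. The same share over the windows of all genes is not given here. Of all protein-coding genes, 37.4% had a summit in the window and 24.6% had one nearest to their own TSS, within 1 kb. For receptor genes these shares were 5.59% and 0.559%. Distances from the summits to the receptor genes' own TSSs ran from 20 to 1832 bp. Signals below are the authors' deposited values for each peak, in the units of their peak caller. They are given for the series list, then for replicate 1 and replicate 2 from the replicates' own ranked lists, with no rescaling between libraries.

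Among the odorant receptors, Or9a on chromosome X (10458186 to 10459676, minus strand) had the strongest peak of the set. Its signal was 691, with 481 in replicate 1 and 216 in replicate 2, which placed it at rank 157 of the 4488 conservative peaks. The summit lay 34 bp from the TSS of Neb-cGP and 1026 bp from that of Or9a, at the far end of the stretch between these divergent genes. Or67b on 3L, a receptor used by larval and adult olfactory neurons, had a weaker peak of 119 (79.3 and 39.6). That summit lay in an exon of Cyp40, which encodes a cyclophilin, 38 bp from a Cyp40 TSS and 817 bp from the Or67b TSS. Another Cyp40 transcript starts 1334 bp from the summit, inside Or67b, so the divergent genes overlap there.

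Of the gustatory receptors, Gr97a on 3R (26965124 to 26966485, minus strand) had a peak of 242 (133 and 100). Its summit lay 43 bp from the TSS of CG5521 and 402 bp from that of Gr97a, in the stretch between the divergent genes. Gr59e, which is transcribed away from its neighbour Gr59f, had overlapping peaks of 294 and 10.4. The stronger lay 22 bp and the weaker 187 bp from the TSS of AIMP3, a protein of the multi-tRNA synthetase complex, while the Gr59e TSS was 1623 and 1832 bp away. In the replicates a single peak, of 185 and 120, overlapped both. No peak in a Gr window was nearest to a Gr TSS.

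The ionotropic receptors held the other peaks and the single own-TSS case. Ir31a, an antennal acid receptor on 2L, had a peak of 233 (150 and 76.9) whose summit lay 7 bp from the shared TSS of LSm-4 and CG17768, with the Ir31a TSS 355 bp away. LSm-4 encodes an Sm-like protein of the splicing machinery. Ir76b, the co-receptor for amine, salt and amino acid sensing, had a peak of 195 (98 and 95.4), and its summit lay between genes, 420 bp upstream of the TSS of CG14187, and 1733 bp upstream of Ir76b, on the same strand as both.

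Ir76a, an antennal amine receptor on 3L (19799278 to 19803427, plus strand), was the exception. Its peak had a signal of 92.3, with 62.6 in replicate 1 and 36.3 in replicate 2. The summit lay in an exon of Ir76a, 20 bp from an internal TSS of that gene, 68 bp from a second one and 2072 bp from the outermost start. The TSS of CG14102, which is transcribed from the opposite strand, was 59 bp away. In the list of replicate 1 alone the summit lay 15 bp from the CG14102 TSS and 24 bp from that of Ir76a. The list of replicate 2 alone had no Ir76a peak. The assignment to Ir76a thus holds in both series lists and in neither replicate list.

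Sequences at 4 of these summits are printed to show the letters at the peaks. Those of Or9a and Gr97a lie between the receptor gene and its divergent neighbour, and that of Ir76b lies upstream of CG14187, which itself lies upstream of Ir76b. They are the longest stretch without an annotated exon within 75 bp of the summit, or, for Ir76a, 30 bases around the motif at its TSS. All are read from the release 6 (dm6) assembly, plus strand, 5′ to 3′. Capitals mark CGATAA or CGATAG on either strand, a sequence known as a binding site of the insulator protein BEAF-32, or the Runx core ACCACA or ACCGCA on either strand.
Or9a and Neb-cGP, chrX:10460627-10460735: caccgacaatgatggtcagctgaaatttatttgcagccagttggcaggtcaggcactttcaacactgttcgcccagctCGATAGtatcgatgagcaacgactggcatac
Gr97a and CG5521, chr3R:26966812-26966929: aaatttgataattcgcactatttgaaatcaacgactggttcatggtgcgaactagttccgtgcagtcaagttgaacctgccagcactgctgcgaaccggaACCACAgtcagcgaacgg
Ir76b and CG14187, chr3L:20113192-20113342: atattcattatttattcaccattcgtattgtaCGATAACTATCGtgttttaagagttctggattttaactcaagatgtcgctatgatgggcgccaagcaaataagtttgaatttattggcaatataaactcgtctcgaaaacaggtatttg
Ir76a and CG14102, chr3L:19801314-19801343: gtaataaatctgCTATCGATAAcataacgg
Within 50 bp of the summit, CGATAA or CGATAG was present at Or9a, Ir76b, Ir76a and the stronger Gr59e peak, 4 of 11 summits (36.4%, 10.9 to 69.2), against 38.1% of all 4488 conservative summits. At Ir76a the capitals run across the internal TSS at position 19801330 and also hold TATCGATA, the element of the replication-related factor DREF, which overlaps both forms of the first motif. At Ir76b, CGATAA stands next to CTATCG, which is CGATAG on the other strand. The Runx core was present at 1 of 11 summits, that of Gr97a, against 8.73% of all summits. A match is a description of the letters and not evidence of binding.

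**Figure D2:**
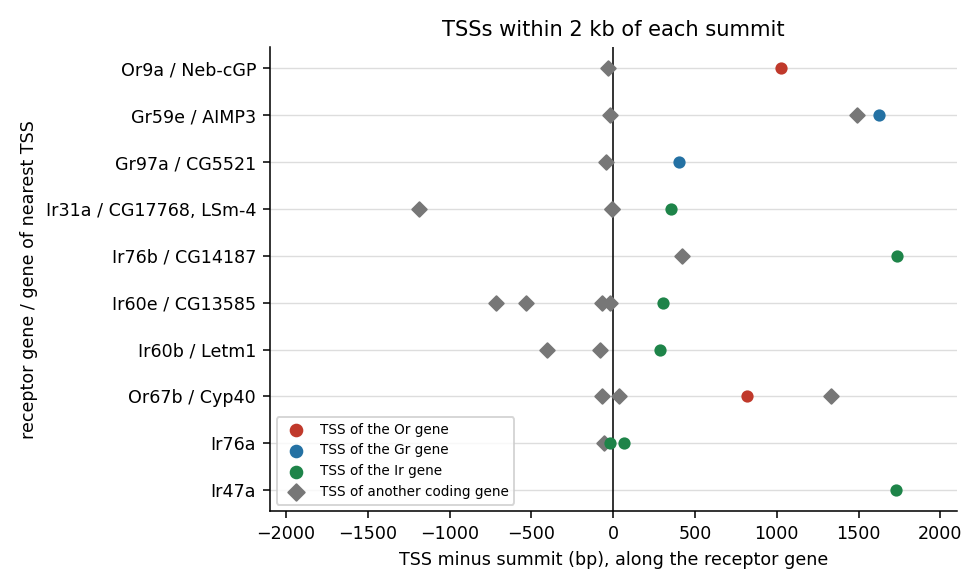
Position of each annotated protein-coding TSS within 2 kb of a summit (x axis, bp, each receptor gene transcribed to the right, so that positive values lie on the receptor's side) for 10 summits (rows); circles are TSSs of the receptor named first, and diamonds are those of other genes, among them Gr59f in the Gr59e row. The summit stands within 100 bp of a diamond in 8 rows, Ir76a included, and within 100 bp of a circle for Ir76a alone.

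The remaining Ir peaks were on arm 2R. Ir60b, a pharyngeal receptor that limits sucrose intake, had a peak of 157 (98.3 and 67.6), 82 bp from a TSS of Letm1, a mitochondrial inner membrane protein, and 283 bp from its own. Ir60e had a peak of 161 (92.9 and 70.6), 17 bp from a TSS of CG13585 and 305 bp from its own. Ir47a had the weakest of the Ir peaks, 80.9 (47.9 and 30.3). Its own TSS, 1730 bp away, was the nearest, and the summit lay in an intron of SLO2, a potassium channel gene that spans Ir47a. No replicate list contained the Ir47a peak.

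Signals at these peaks were middling within the list. The 11 peaks had a median of 161, against 144 for the conservative list, and 7 of 11 exceeded that value. The deposited value of replicate 1 exceeded that of replicate 2 at all 11, from 98 against 95.4 at Ir76b to 481 against 216 at Or9a, and no scaling between the libraries is stated. The replicate 1 list contained 10 of the 11 and the replicate 2 list 8. Both Gr59e peaks overlap the same peak of each replicate and are counted separately in these comparisons. The next strongest after Or9a, at percentile 96.5, was the stronger Gr59e peak at percentile 79.1.

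**Figure D3:**
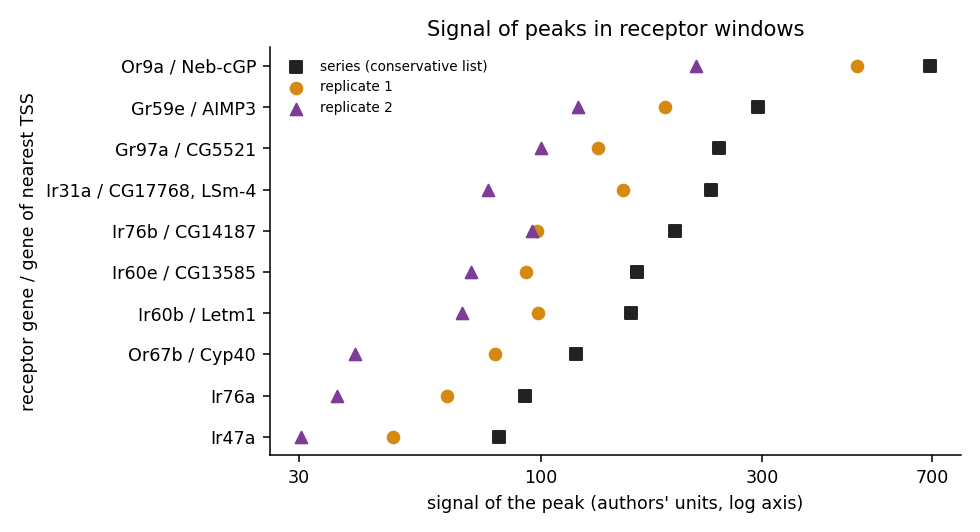
Signal (x axis, authors' units, log axis) of 10 peaks in receptor windows (rows, receptor first and the gene of the nearest TSS second) in the series list and in each replicate; the Gr59e peak of 10.4 is not drawn. Signals run from 80.9 at Ir47a to 691 at Or9a, and replicate 1 lies above replicate 2 in every row.

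Counted by their own TSS, receptor genes had almost no peaks. A summit within 1 kb of a gene's TSS, with no TSS of another protein-coding gene nearer, was found for 1 of 179 receptor genes (0.559%, 0.0141 to 3.07), against 24.6% of all protein-coding genes. That gene was Ir76a. Or genes had 0 of 59, which allows up to 6.06% by the exact interval, and Gr genes 0 of 60, which allows up to 5.96%. The second series list added Gr61a, a sugar receptor on 3L, and the replicate 1 list had Gr61a alone. The Gr61a summit in the second list lay 141 bp from its TSS with a signal of 72.1, and the ranked lists of the replicates gave 43.1 and 21 in its window. A TSS of the non-receptor gene JMJD5 lay 91 bp from that of Gr61a, so the peak stood near the starts of both genes.

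Whether a window held another gene's start divided the set. A TSS of a non-receptor coding gene lay in the window of 42 receptor genes, and 9 of these had a peak (21.4%, 10.3 to 36.8). The other 137 windows held none, and 1 of them had a peak (0.73%, 0.0185 to 4), that of Ir47a. Among all protein-coding genes 49.3% of the 8077 windows with a TSS of another, non-receptor coding gene had a peak, and 21.1% of the 5891 without. Receptor genes were lower in both classes. By family, windows with a neighbour's TSS had a peak in 2 of 13 Or, 2 of 17 Gr and 5 of 12 Ir cases, and windows without one in 0 of 46, 0 of 43 and 1 of 48.

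The neighbours themselves had peaks more often. The nearest non-receptor coding genes to the receptors numbered 138, and 28 of them had a summit at their own TSS (20.3%, 13.9 to 28), an interval that includes the 24.6% of all genes. In their windows, from 2 kb before the gene start to the gene end, 36 had a peak (26.1%, 19 to 34.2), below 37.4%. The median distance from a receptor TSS to the nearest non-receptor TSS was 4270 bp for Or, 3470 bp for Gr and 4610 bp for Ir genes.

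Receptor genes inside and outside arrays both had few peaks. An array here is a run of receptor genes, of any family and spacing, with no other coding gene between them in order of lower chromosomal coordinate. In that order, 99 receptor genes stood alone between other coding genes and 80 lay in arrays of 2 or more. Not every array is a tandem duplication: Ir47a, which had a peak, counts as arrayed through Gr47a, a gene of another family. Peaks were found at 7 of the 99 (7.07%, 2.89 to 14) and 3 of the 80 (3.75%, 0.78 to 10.6). Gr genes were arrayed most often, 35 of 60, against 29 of 60 Ir and 16 of 59 Or genes. The largest array, the 6 sugar receptors Gr64a to Gr64f on 3L, had no conservative peak, and its nearest conservative summit was 35847 bp from a TSS of the array. Beside the thresholded lists there are ranked lists, which also keep weak peaks: a first and another of the series, and 1 of each replicate. None of the Gr64 windows held a summit of the first ranked series list or of the replicate 1 ranked list, 1 held a summit of the other ranked series list (23.3, Gr64f), and all 6 held summits of the replicate 2 ranked list, the strongest per window between 18.3 and 24.8. The 5 genes Gr22a to Gr22e on 2L, 31924 bp from a conservative summit, had ranked summits in replicate 2 only, in 4 of 5 windows (strongest 9.05 to 15.1). The 5 genes Ir7c to Ir7g on X had no conservative peak and a strongest ranked signal of 25.2.

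Ranked peaks, weak and strong together, were also scarcer at receptor genes, by the first ranked list of the series, which holds 101843 peaks. No ranked summit at all lay in 83 of 179 receptor windows (46.4%, 38.9 to 54), against 14.8% of all genes and 11.5% of non-receptor genes of like window length. The count was 28 of 59 for Or, 30 of 60 for Gr and 25 of 60 for Ir genes. With a missing summit taken as 0, the median of the strongest signal per window was 13.2 for Or, 3.45 for Gr and 19.7 for Ir genes, against 53.7 for all genes and 52.6 for those of like length. Both backgrounds include genes with a conservative peak. Among genes without one in the window, the median was 9.28 for receptor genes and 32.8 for all genes. Of those windows, 49.1% and 23.7% held no ranked summit. The order of the families did not hold across lists. In the series' other ranked list the medians were 16 for Or, 20.7 for Gr and 22.9 for Ir genes, against 54 for all genes. In replicate 1 they were 0, 0 and 8.96 against 35.7, and in replicate 2 they were 15.1, 15.4 and 16.3 against 24.8. Each family's median was below that of all genes in all 4 ranked lists, and Gr lay below Or in the first list alone. Empty windows also varied with the list. The other ranked list had no summit in 66 of 179 receptor windows (36.9%), against 11.5% of all genes. Replicate 1 had no ranked summit in 49.7% of receptor windows and replicate 2 in 12.8%, against 17.1% and 6.77% of all genes. In both replicates the receptor share was above that of all genes, and 20 receptor windows held no ranked summit in the first series list or in either replicate (11.2%, against 5.28% of all genes).

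**Figure D4:**
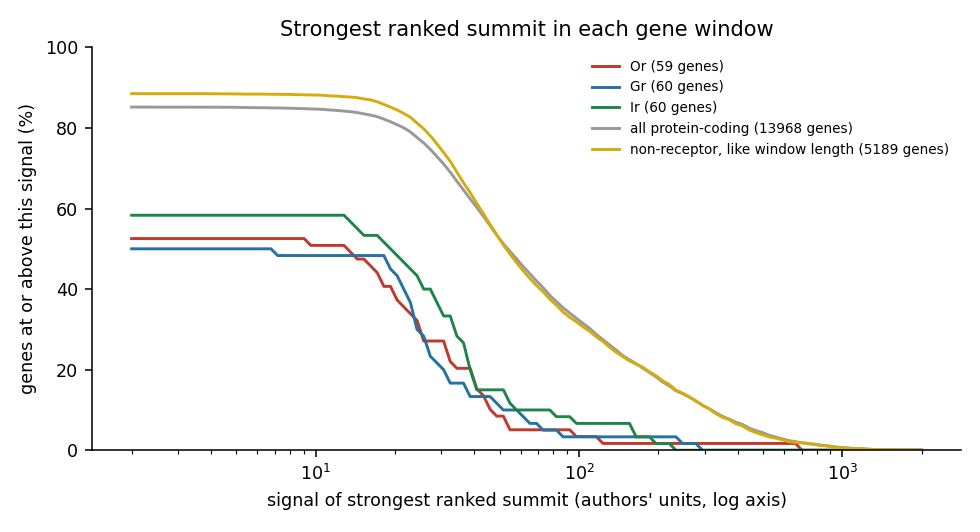
Percent of genes (y axis) whose window holds a summit of the first ranked series list at or above a given signal (x axis, authors' units, log axis), for the 3 families, for all protein-coding genes and for non-receptor genes of like window length. The families start between 50% and 58.3% and the 2 background curves at 85.2% and 88.5%.

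The 3 members with the strongest ranked signal in each family had that summit nearest to a TSS of a non-receptor gene. Apart from Or71a and Gr47b, these are the conservative peaks already described, so they add no separate finding. After Or9a and Or67b, the next Or gene was Or71a, a maxillary palp receptor, with 96.4 at 50 bp from the TSS of Plp, which encodes a centrosomal protein. After Gr59e and Gr97a came Gr47b with 84.3, 22 bp from the TSS of san, an N-acetyltransferase gene. The first 3 Ir genes were Ir31a, Ir76b and Ir60e. Of the 96 receptor windows with a ranked summit, the strongest was nearest to the receptor's own TSS in 59, to a non-receptor gene in 31 and to another receptor in 6. In 38 of the 59 it lay within 1 kb. The strongest of these after Ir76a and Gr61a was at Gr89a, a bitter receptor gene, with 48 at 122 bp from the TSS. The signal of 48 stood at percentile 46.1 of the strongest signals over all genes. Anywhere in the Gr89a window, the strongest ranked signals were 35.1 in replicate 1 and 35.9 in replicate 2, not matched to that summit.

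Across the 4 thresholded lists, 18 receptor genes had a peak in at least 1, against 48.5% of all protein-coding genes, and 7 in every list, against 28%. The 7 were Gr59e, Gr97a, Ir31a, Ir60b, Ir60e, Ir76b and Or9a. The second series list had 15 receptor genes, against 45.2% of all genes, and contained all 10 of the conservative list. It added Or71a, Gr47b, Gr61a, Gr63a and Ir56b. Gr63a, a subunit of the carbon dioxide receptor, had its summit of 61.4 at 22 bp from the TSS of Lamtor4, a Ragulator subunit gene. Ir56b, a salt receptor gene, had 57.3 at 1819 bp upstream of its own TSS. Replicate 1 alone had 16 receptor genes, against 43.7% of all genes. It alone had Or67c, with 85.2 at 1726 bp upstream of its own TSS, Gr5a, a trehalose receptor gene, with 50.5 at 9 bp from the TSS of Tre1, and Ir21a, a cool-sensing receptor gene, with 41.3 in the gene body at 1036 bp from the TSS of l(2)gl. Replicate 2 alone had 8, against 29.5% of all genes, and lacked Ir47a, Ir76a and Or67b.

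Median distances to a conservative summit were larger in each family than over all genes, with overlapping quartile ranges. The median distance from a gene's TSSs to the nearest conservative summit was 27000 bp for Or (quartiles 10100 and 38900), 15200 bp for Gr (5610 and 35000) and 12500 bp for Ir genes (5760 and 27700). Over all genes it was 4400 bp (163 and 16000). Among genes without a conservative peak in the window it was 11700 bp (5050 and 27000) over all genes, close to the Ir value. For receptor genes without one it was 19200 bp (7110 and 37500). Within 100 bp of a summit were 1 of 179 receptor genes and 22% of all genes, and within 10 kb 35.8% and 65.5%. By 50 kb the shares were 88.3% and 92.8%. Ir76a was nearest, at 20 bp, and Ir41a farthest, at 170829 bp, followed by Or35a at 118831 bp. Ir41a is also the longest member, with a window of 106437 bp. That window held no summit of the first ranked series list or of the replicate 1 ranked list, 10 of the other ranked series list (strongest 24.5) and 46 of the replicate 2 ranked list (strongest 19.6). The closest members outside the 2 kb limit on the upstream side were Ir25a, Gr47b and Gr43a, with summits 2723, 2746 and 2747 bp upstream, each within 24 bp of another gene's TSS (tank, CG12384 and Glo1).

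**Figure D5:**
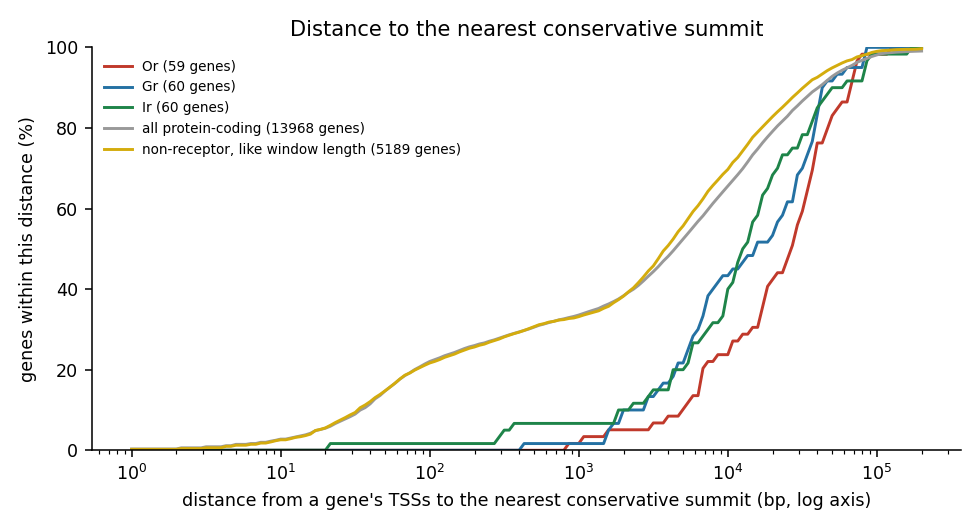
Percent of genes (y axis) within a given distance of a conservative summit (x axis, bp from the gene's nearest TSS, log axis) for the families, all protein-coding genes and non-receptor genes of like window length. At 1000 bp the families stand at 1.69% (Or), 1.67% (Gr) and 6.67% (Ir), and all genes at 33.6%.

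Most gene-to-peak matches past the 3' end were also nearest to a non-receptor TSS. With the window extended 2 kb beyond the gene end, 11.7% of receptor genes had a peak, against 5.59% without. Over all protein-coding genes these shares were 45.4% and 37.4%. The extension added 11 receptor genes with 13 gene-to-peak matches, of which 11 were nearest to a non-receptor TSS and 10 of those lay within 1 kb of it. They include the co-receptor genes Ir25a (370, 15 bp from the TSS of Fnta) and Ir8a (240, 37 bp from that of CG12121), and Ir93a (799, 2 bp from that of RpS30), which acts in temperature and humidity sensing. The Gr59f matches (294 and 10.4) are the Gr59e peaks described above, and Gr98c and Gr98d share a peak (209). The Ir co-receptors Ir8a, Ir25a and Ir76b each had a peak nearest to a neighbour's TSS, in the window or within 2 kb past the gene end. None had a peak at its own TSS. Windows of that extent held a peak for 45.4% of all genes, and the 3' end cases were added after seeing values. Whether the co-receptors differ from other genes was not tested. In the windows as defined, the strongest ranked signals of Ir8a and Ir25a were 39.6 and 38.3. Orco, whose symbol is outside the rule, had no conservative peak and a strongest ranked signal of 37.8, with 21.1 in replicate 1 and 17.3 in replicate 2.

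Functional groups within the families gave counts too small to rank. The share of all protein-coding genes with a conservative peak in the window was 37.4%. Antennal Ir genes, which serve smell, temperature and humidity, had a peak in 3 of 17 cases (17.6%, 3.8 to 43.4), and the other Ir genes in 3 of 43 (6.98%, 1.46 to 19.1). No conservative peak lay in the windows of the 9 sugar receptor genes, which allows up to 33.6%, of 5 bitter receptor genes (up to 52.2%) or of both carbon dioxide receptor genes (up to 84.2%). Odorant receptor genes used by larvae had a peak in 1 of 25 cases and the others in 1 of 34. The intervals of each of these pairs overlap.

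Other chemosensory genes were set beside the receptors, and beside the 37.4% of all protein-coding genes with a conservative peak in the window. Of 51 odorant-binding protein (Obp) genes, which encode secreted proteins of the sensillum lymph, 4 had a peak (7.84%, 2.18 to 18.9). The peaks at Obp47b (158), Obp59a (463) and Obp93a (99.2) lay 2, 39 and 17 bp from the TSSs of CG7741, robo1 and Ice2, a second Obp47b peak had 2.47 at 204 bp from CG7741, and that at Obp56b (112) was nearest to its own TSS, 469 bp away. The genes Snmp1, lush, acj6, ato and amos, which act in pheromone detection or in the specification of olfactory neurons, had no conservative peak. The transcription factor gene pdm3 had peaks of 113 and 166 inside the gene, 8737 and 7149 bp from its nearest TSS. The gene mip120, which encodes a subunit of the Myb-MuvB complex, had a peak of 456 at 37 bp from its own TSS. Cuticle protein genes of the Cpr family, many of which are also arrayed, had a peak in 4 of 70 cases (5.71%, 1.58 to 14).

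Promoter letters of the receptors were compared with those of all genes, from 250 bases before to 50 after the annotated gene start. CGATAA or CGATAG on either strand was present in 37 of 179 receptor promoters (20.7%, 15 to 27.3), against 35% of 13945 promoters, 58.2% of those of genes with a summit at their own TSS and 27.4% of the rest. By family it was present in 18.6% of Or, 16.7% of Gr and 26.7% of Ir promoters. The DREF element TATCGATA was present in 1 receptor promoter against 9.36% of all, and the M1BP element GGTCACAC in 0 against 7.7%. The Runx core was present in 19.6% of receptor promoters and 20.6% of all promoters, with 25.4% for Or, 25% for Gr and 8.33% (2.76 to 18.4) for Ir genes. The window at the outermost start of Ir76a does not reach the internal TSS where its peak lay.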

How the data were processed

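Peak lists on the dm6 build were used as deposited, per the file headers and labels: a conservative list (4488 peaks), a second thresholded list (6393), a ranked list of the series (101843 peaks; a second one, with 112144, as an alternative) and thresholded and ranked lists for replicates 1 and 2. The signal of each peak is the authors' deposited value, with no stated scaling between libraries. Aligner, peak caller and read depth: not given in the sources used here. Genes and TSSs came from Ensembl release 115 (BDGP6) and bases from RefSeq's copy of the release 6 assembly. A replicate's signal at a peak is the strongest peak of its ranked list that overlaps by at least 1 bp. The design has 1 group, so no test between conditions was made; shares carry exact 95% binomial intervals. Motifs were searched on both strands, within 50 bp of summits. The genes, the lists and the comparisons were chosen with earlier results of these data known. Named were all members with a conservative peak, the 3 strongest ranked members per family, the nearest and farthest member, own-TSS cases of other lists and the co-receptors; the largest arrays, Gr89a, Gr63a, Gr5a, Ir21a, cuticle protein genes, the 3' end cases and those just outside 2 kb were added after seeing values. Window and nearest-TSS steps were checked on simulated data against a direct search. Tables were handled in pandas 2.3.3 and numpy 2.4.6 under Python 3.11.15, intervals came from scipy 1.17.1, and plots from matplotlib 3.10.9.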

Additional observations from a re-analysis of the deposited data

How the results depend on the processing

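The share of receptor genes with a peak stayed below that of all genes under each of the 8 alternatives run. It moved outside its interval with 2 kb added on both sides of the gene (11.7%, against 45.4% of all genes) and with the gene body alone (0.559%, against 12.8%). By family, the body alone gave 0% for Or and Gr and 1.67% for Ir genes, and both flanks gave 11.7% for Gr genes. The Ir share was above the others in the conservative list, but Gr and Ir were equal at 10% without replicate 2. The own-TSS share ran from 0% to 0.559% with either replicate left out, and its single gene differed, being Gr61a without replicate 2 and none without replicate 1. The median strongest ranked signal of receptor windows, 15 in the series list, was 2.93 without replicate 2, 15.4 without replicate 1 and 20.2 in the other ranked list. Over all genes those medians were 53.7, 35.7, 24.8 and 54, so the size of the gap depends on the list; the cause was not tested. The other alternatives stayed within the intervals. Depth is unknown, so weak binding at receptor genes was not detectable below what the lists retain. No paired analysis was possible because there was 1 group and no test.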
